A study of Homo sapiens with 12 samples.

Results

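Interferon-stimulated genes were followed in NCI-H295R, a human adrenocortical carcinoma cell line, as a set of 39 genes chosen by symbol for their role in the interferon response. All 39 were found among the 60617 genes of the count table, and 36 of them passed the filter on low counts that left 20360 genes for testing. Polyadenylated RNA was sequenced from 4 groups of 3 cultures each. Baseline cultures were kept in the DMSO vehicle for 96 h. EZH2i stands for 96 h in 62 µM EPZ-6438, which inhibits EZH2, the methyltransferase that places the repressive mark on lysine 27 of histone H3. CBPi stands for 96 h in 26 µM PRI-724, described in the labels as inhibiting the coactivator CBP. FSK stands for 48 h in vehicle followed by 48 h in 10 µM forskolin, an activator of adenylyl cyclase that raises cAMP. The labels list interferon in no group, so the baseline values are levels held without added interferon. All libraries come from 1 line, and the p-values measure the spread between the biological replicates of that line.

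Interferons bind cell surface receptors whose JAK kinases phosphorylate STAT factors, STAT2 among them. STAT2 and IRF9 are subunits of the ISGF3 complex, which binds the interferon-stimulated response element (ISRE) in promoters, while other STAT complexes bind the gamma-activated site (GAS). The genes switched on this way sense viral RNA, degrade or sequester it, hold virions at the membrane and tune the pathway itself, and many keep a low basal level in cells that meet no virus.

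The libraries held between 20.6 and 31.5 megacounts. CBPi replicate 2 stood apart from its group: the chi-square per degree of freedom over well counted genes was 12.1 and 13.2 for the pairs with it, against 2.56 to 6.68 for the other 10 replicate pairs, so results under CBPi are given with and without it where it mattered. The adrenocortical markers NR5A1, STAR, CYP11A1, CYP17A1, HSD3B2 and MC2R were all detected, and their summed level was 1683 to 1734 CPM (counts scaled to the depth of the library) at baseline, 566 to 592 under EZH2i, 499 to 564 under CBPi and 2620 to 2781 under FSK. The 9 leukocyte markers summed to between 1.59 and 3.34 CPM over all libraries, MS4A1 was at 0 in all of them, and PTPRC had at most 1 count. The 5 fibroblast markers, mainly the collagens COL1A1 and COL3A1, summed to 33.4 to 35.0 CPM at baseline, 27.2 to 30.2 under EZH2i, 13.3 to 17.4 under CBPi and 9.16 to 11.5 under FSK. The 4 endothelial markers summed to at most 0.958 CPM at baseline and 2.55 to 3.71 CPM under EZH2i, where KDR made up most of the sum. The part of these shifts in the results on the interferon-stimulated genes was not tested.

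The ISRE letters, GAAA, any 2 bases and GAAA again, read on both strands with overlapping matches counted, marked the promoters of the set. Promoter windows of 250 bases before the start were taken from RefSeq (GRCh38.p14), which had an entry for 31 of the 39 genes. The letters occurred in 19 of these 31 windows (61.3%) and in 1061 of all 35114 windows of that length (3.02%). The GAS letters TTCNNNGAA, which read the same on both strands, occurred in 9 of the 31 (29.0%) and in 2306 of all windows (6.57%). Parts of 4 windows are printed below 5′ to 3′ along the gene's own strand and cut so that no exon of a protein-coding gene is included, with ISRE matches in capitals. They are the windows of IFIT1, IFI6 and IFI44, which fell by more than 1.5-fold after at least 1 treatment, and of STAT2, which rose and whose window holds no match.
IFIT1, chr10:89392373-89392545, plus strand: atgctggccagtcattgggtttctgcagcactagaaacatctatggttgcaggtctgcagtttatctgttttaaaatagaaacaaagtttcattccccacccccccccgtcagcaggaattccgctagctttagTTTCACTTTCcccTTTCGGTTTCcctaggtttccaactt
IFI6, chr1:27672219-27672398, minus strand: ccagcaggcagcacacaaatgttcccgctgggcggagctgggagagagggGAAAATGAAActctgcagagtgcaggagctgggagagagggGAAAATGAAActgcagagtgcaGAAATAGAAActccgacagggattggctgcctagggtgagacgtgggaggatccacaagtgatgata
IFI44, chr1:78649609-78649788, plus strand: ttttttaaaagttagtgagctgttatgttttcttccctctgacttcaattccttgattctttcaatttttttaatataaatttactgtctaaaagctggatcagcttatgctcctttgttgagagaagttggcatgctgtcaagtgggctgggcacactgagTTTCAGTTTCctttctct
STAT2, chr12:56360156-56360335, minus strand: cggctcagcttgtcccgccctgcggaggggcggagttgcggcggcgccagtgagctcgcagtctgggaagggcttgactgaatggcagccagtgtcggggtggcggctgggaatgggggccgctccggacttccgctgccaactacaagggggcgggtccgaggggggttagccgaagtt
IFIT1 carries 2 matches 3 bases apart, IFI6 carries 3 and IFI44 carries 1 close to its start. These 4 windows do not stand for the set. PARP9, IFI35, IRF9 and OAS1 also fell after at least 1 treatment, and their windows hold no match. HERC5, DDX60, PARP12 and PARP14 rose after at least 1 treatment, and their windows hold matches.

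At baseline the set spanned most of the range of expressed genes. Per kilobase of gene length, BST2, which encodes the virion tether tetherin, was highest at 181 CPM per kb, and 99.0% of the genes tested lay below it. IFI6, a small protein of the endoplasmic reticulum and mitochondria, followed at 53.5 CPM per kb, then IFI44 at 24.8, OAS3 at 9.49, STAT2 at 8.09, IFIT1 at 7.49 and IFIT3 at 7.07. The lowest were OASL at 0.194 and OAS2 at 0.116 CPM per kb. The median of the 36 tested members was 2.63 CPM per kb, against 3.34 for all genes tested, and 13 members lay above that all-gene median. The 3 members that did not pass the filter were IRF7 with 0 to 2 counts per library, IFITM3 with 0 to 5 and MX2 with 1 to 14.

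More of these genes fell than rose under each treatment: 13 against 6 under EZH2i, 15 against 8 under CBPi and 22 against 2 under FSK. The shares that fell were 36.1%, 41.7% and 61.1%, against 28.3%, 29.0% and 25.1% of all genes tested. Those that rose were 16.7%, 22.2% and 5.56%, against 29.5%, 29.8% and 25.5%. The summed CPM of the members was 820 ± 18.8 at baseline, 679 ± 6.03 under EZH2i, 677 ± 38.3 under CBPi and 590 ± 2.03 under FSK (SD, n = 3 each), and no treated library reached the lowest baseline library, at 799.5. BST2 alone went from 199 to 95.1, 117 and 80.0 CPM under EZH2i, CBPi and FSK. Without BST2, the sum over the other 38 members was 621 ± 5.96 at baseline, 584 ± 5.24 under EZH2i, 560 ± 37.4 under CBPi and 510 ± 0.835 under FSK (SD, n = 3 each). These sums lay 5.93%, 9.70% and 17.8% below baseline, against 17.2%, 17.4% and 28.0% with BST2, and still did not overlap it. Under EZH2i the sum without BST2 was 36.8 CPM lower, less than the mean falls of IFIT1 and IFI6 together. IFIT1 went from 34.6 to 14.8 CPM, and IFI6 libraries from at least 42.4 to at most 22.5 CPM. Under CBPi that sum was 60.2 CPM lower, less than the mean falls of IFIT1, IFI6 and IFI44 together. The sums therefore do not show a fall of the remaining members under either inhibitor. In RNA from whole cultures, fewer cells expressing a gene and less RNA per cell cannot be told apart. The 3 comparisons share the baseline libraries and are therefore given side by side as separate measurements. Calls are from edgeR's quasi-likelihood test, with p-values adjusted by Benjamini-Hochberg over all 20360 genes and a threshold of 0.05.

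Under EZH2i, 13 of the 36 tested members fell, 6 rose and 17 did not pass. The 36.1% that fell stands against 28.3% of all genes tested, and the 16.7% that rose against 29.5%. The median log2 fold change of the members was -0.07, against 0.02 for all genes. In all, 6 members (BST2, IFI6, IFI35, IFIT1, IFITM2 and IRF9) fell by significantly more than 1.5-fold (background 4.79%) and 0 rose by that much (background 6.62%).

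Under CBPi, 15 members fell, 8 rose and 13 did not pass. The shares were 41.7% lower against 29.0% of all genes, and 22.2% higher against 29.8%. The median was -0.04, against 0.01 for all genes. By more than 1.5-fold, 6 fell (IFIT1, IFITM2, IFI6, IFITM1, IFI44 and BST2; background 6.14%) and STAT2 rose (background 6.09%). Without CBPi replicate 2, 16 members fell and 6 rose, the median was -0.15, and 7 fell and 0 rose by more than 1.5-fold.

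Under FSK, 22 members fell, 2 rose and 12 did not pass. The 61.1% that fell stands against 25.1% of all genes, and the 5.56% that rose against 25.5%. The members' median was -0.45, against 0.01 for all genes. By more than 1.5-fold, 10 fell (IFI44L, BST2, IFI27, IFITM1, IFITM2, IFI35, DDX60, IFI6, PARP9 and IFIT1; background 6.45%) and 0 rose (background 5.34%). In 22 members every FSK library lay below every baseline library, a pattern that 28.7% of all genes showed. When libraries were scaled by their size alone, 24 members fell and 2 rose, against 30.7% and 20.2% of all genes.

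**Figure D1:**
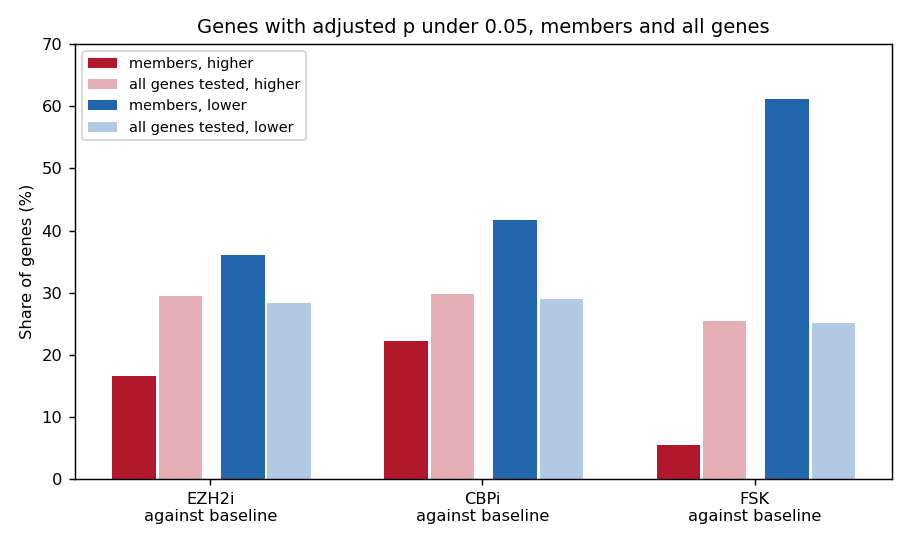
Share of genes, in percent, with an adjusted p under 0.05 in each comparison with baseline, for the 36 tested interferon-stimulated genes (dark bars) and all 20360 genes tested (pale bars), split into higher (red) and lower (blue). The dark blue bar under FSK reaches 61.1%, beside a pale bar of 25.1%.

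**Figure D2:**
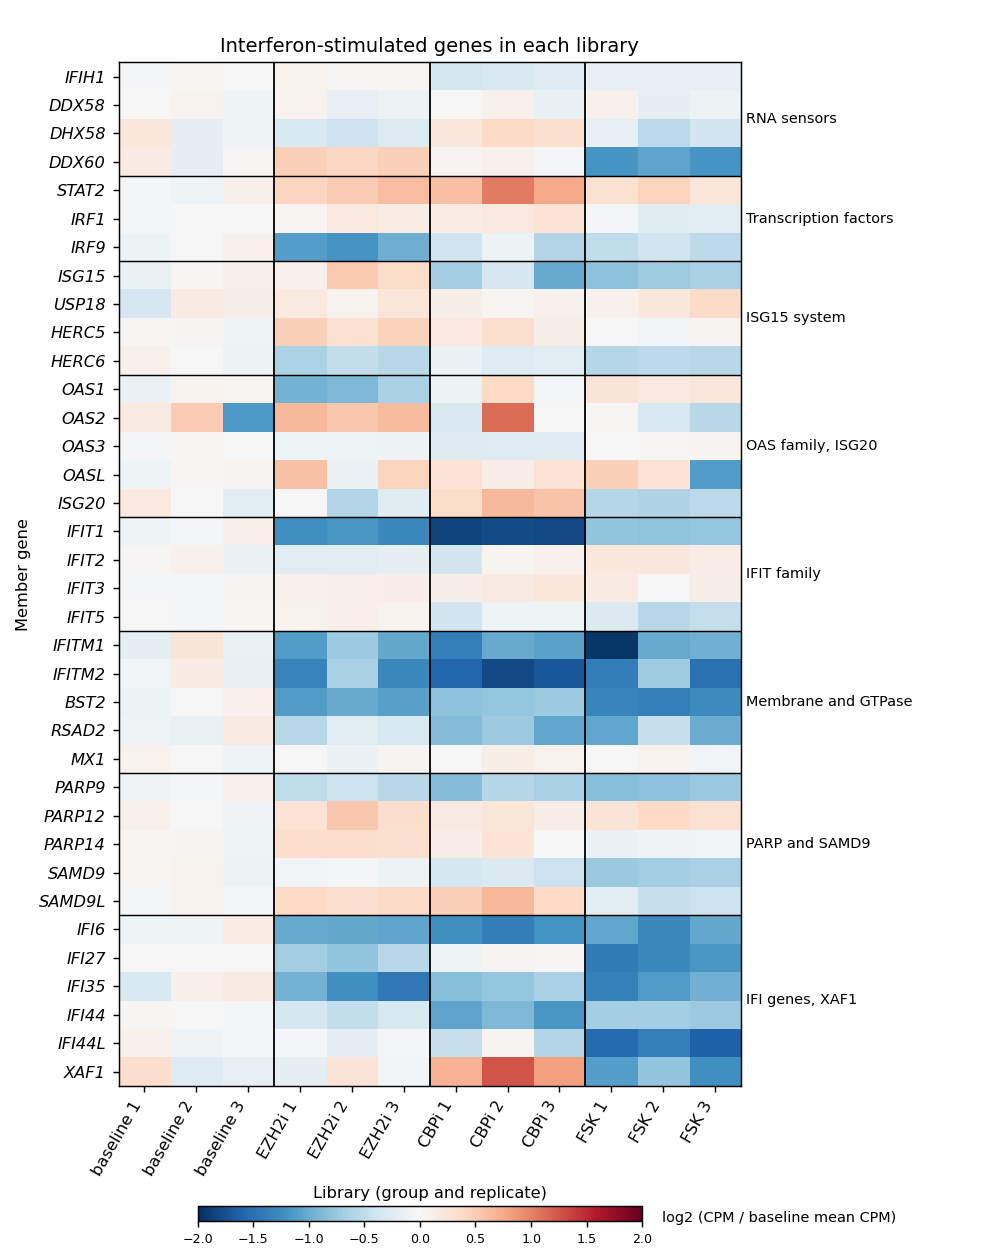
Log2 ratio of each library's CPM to the baseline mean for the 36 tested members (rows, grouped by role) in the 12 libraries (columns); blue is below and red above the baseline mean. IFIT1, BST2, IFI6 and IFI35 are blue in all 9 treated libraries, and STAT2 is red in all 9.

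The RNA sensors gave small changes with 1 exception. DDX60, a helicase reported to aid RIG-I-like sensing, was at 3.74, 2.91 and 3.39 CPM at baseline, 4.66, 4.44 and 4.67 under EZH2i, 3.49, 3.56 and 3.27 under CBPi and 1.48, 1.61 and 1.48 under FSK. Its EZH2i libraries all lay above baseline and its FSK libraries all below, at less than the lowest baseline value. DDX60 rose by 0.47 ± 0.12 on the log2 scale under EZH2i (± SE; edgeR adjusted p = 0.00224) and fell by 1.12 ± 0.15 under FSK (edgeR adjusted p = 2.81e-06). IFIH1, which encodes the long dsRNA sensor MDA5, fell by 0.30 under CBPi (edgeR adjusted p = 0.000671). It also passed under FSK at -0.17 (edgeR adjusted p = 0.0446), a call that was lost with DESeq2 (adjusted p = 0.0966) and on leaving out any of the 6 libraries compared. DDX58, which encodes RIG-I, was between 4.77 and 4.98 CPM in the 4 group means and did not pass in any comparison with baseline. DHX58, which encodes LGP2, a relative of both sensors that lacks their signalling domain, passed at -0.32 under EZH2i, 0.32 under CBPi and -0.35 under FSK, but each call was lost without some library. Without baseline replicate 1 it was -0.20 under EZH2i (edgeR adjusted p = 0.181) and -0.23 under FSK (edgeR adjusted p = 0.171), and without CBPi replicate 2 it was 0.28 under CBPi (edgeR adjusted p = 0.0702).

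Of the transcription factors, the ISGF3 subunits STAT2 and IRF9 moved in opposite directions. STAT2 was at 49.3, 47.4 and 53.7 CPM at baseline, 67.4, 71.6 and 77.1 under EZH2i, 76.4, 103 and 85.2 under CBPi and 62.1, 68.0 and 59.2 under FSK. Every treated library lay above every baseline library, and CBPi replicate 2 was the highest of all. STAT2 rose by 0.52 ± 0.09 on the log2 scale under EZH2i (edgeR adjusted p = 0.000261), by 0.82 ± 0.10 under CBPi (edgeR adjusted p = 3.44e-06) and by 0.33 ± 0.10 under FSK (edgeR adjusted p = 0.00986). Without CBPi replicate 2 the CBPi value was 0.68 (edgeR adjusted p = 8.75e-09).

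IRF9, the DNA-binding subunit of ISGF3, was at 9.39, 10.1 and 10.7 CPM at baseline, 4.69, 4.44 and 5.10 under EZH2i, 7.66, 9.37 and 6.68 under CBPi and 7.11, 7.62 and 7.04 under FSK. All treated libraries lay below baseline, under CBPi replicate 2 only just so. IRF9 fell by 1.09 ± 0.11 under EZH2i (edgeR adjusted p = 7.78e-08), by 0.36 ± 0.11 under CBPi (edgeR adjusted p = 0.00822) and by 0.47 ± 0.11 under FSK (edgeR adjusted p = 0.00127). The CBPi call was lost without CBPi replicate 3 (-0.24, edgeR adjusted p = 0.0744) and was -0.51 without CBPi replicate 2. In GENCODE 29, 48.4% of the exonic bases of IRF9 lie in another gene model on the same strand, AL136295.5. Reads there cannot be assigned with certainty, and whether the counting used these gene models is not given. Per kilobase, the ratio of STAT2 to IRF9 was 3.05 ± 0.175 at baseline, 9.31 ± 0.551 under EZH2i, 6.89 ± 0.859 under CBPi and 5.32 ± 0.162 under FSK (SD, n = 3 each), with no treated library overlapping baseline; the pair was chosen after its values were seen. IRF1, a factor also induced through GAS sites, rose by 0.21 under CBPi (edgeR adjusted p = 0.00754) and did not pass under EZH2i (0.13) or FSK (-0.16, edgeR adjusted p = 0.050). Some alternatives gave a call. Under FSK it passed without FSK replicate 1 (-0.23, edgeR adjusted p = 0.00984), and under EZH2i without EZH2i replicate 1 (0.17, edgeR adjusted p = 0.0447). An opposite-strand gene model, C5orf56, covers 22.0% of the exonic bases of IRF1.

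The ISG15 system showed no shared direction. ISG15, the ubiquitin-like modifier, was at 1.92, 2.13 and 2.26 CPM at baseline, 2.22, 3.01 and 2.71 under EZH2i, 1.31, 1.66 and 1.04 under CBPi and 1.19, 1.28 and 1.34 under FSK. The CBPi and FSK libraries all lay below baseline, and the EZH2i libraries overlapped it. ISG15 fell by 0.67 ± 0.20 under CBPi (edgeR adjusted p = 0.00647) and by 0.72 ± 0.20 under FSK (edgeR adjusted p = 0.00471), and was 0.33 ± 0.17 under EZH2i (edgeR adjusted p = 0.0984). The CBPi call was lost without CBPi replicate 3 (-0.49, edgeR adjusted p = 0.0542). HERC5, the ligase that attaches ISG15, rose by 0.41 ± 0.07 under EZH2i (edgeR adjusted p = 4.83e-05) and by 0.21 under CBPi, where the call was lost without CBPi replicate 2 (0.14, edgeR adjusted p = 0.116) and without baseline replicate 3. Its neighbour on chromosome 4, HERC6 (chr4:88378739-88443111), fell by 0.56 ± 0.10 under EZH2i (edgeR adjusted p = 5.39e-05) and by 0.55 ± 0.10 under FSK (edgeR adjusted p = 0.000143). USP18, the protease that removes ISG15 and also restrains the receptor, was 6.02 CPM at baseline and 6.34 to 7.06 CPM in the treated groups and passed in no comparison with baseline. Its deposited counts were fractional in all 12 libraries, so some of its reads may be shared with other loci.

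OAS1, OAS2 and OAS3 make the 2-5A messenger that activates RNase L. The OAS family, with OASL, gave few calls against baseline: OAS1 and OAS3 passed in 1 such comparison each, OAS2 and OASL in 0. OAS1, OAS3 and OAS2 lie side by side at chr12:112906777-113011723. OAS1 was at 11.7, 13.3 and 13.1 CPM at baseline, 6.58, 6.79 and 8.11 under EZH2i, 11.9, 16.7 and 12.5 under CBPi and 15.2, 14.5 and 14.8 under FSK. Only the EZH2i libraries lay below baseline, and the CBPi libraries overlapped it. OAS1 fell by 0.83 ± 0.11 under EZH2i (edgeR adjusted p = 3.62e-06) and was 0.11 under CBPi (-0.07 without CBPi replicate 2) and 0.22 under FSK, neither of which passed. OAS3, the family member with the highest level per kilobase, was between 64.4 and 64.8 CPM under CBPi against 76.1 to 79.1 at baseline, a fall of 0.26 ± 0.04 on the log2 scale (edgeR adjusted p = 2.23e-05), and did not pass under EZH2i or FSK. OAS2 and OASL had 7 to 38 counts per library and passed in no comparison with baseline. OAS2 was higher under EZH2i than under FSK by 0.87 ± 0.35 on the log2 scale (edgeR adjusted p = 0.0397). ISG20, an RNA exonuclease, rose by 0.53 ± 0.15 under CBPi (edgeR adjusted p = 0.00392) and fell by 0.57 ± 0.17 under FSK (edgeR adjusted p = 0.0077).

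Among the IFIT genes, which encode proteins that bind foreign RNA ends, IFIT1 fell against baseline in each treated group while IFIT2 passed against baseline in none. The 4 genes lie together on chromosome 10 in the order IFIT2, IFIT3, IFIT1 and IFIT5 (chr10:89283694-89421001). IFIT1 was at 32.4, 34.2 and 37.1 CPM at baseline, 14.7, 15.4 and 14.2 under EZH2i, 9.64, 10.0 and 9.88 under CBPi and 20.1, 19.9 and 20.1 under FSK. No treated library overlapped baseline, and the groups stood in the order baseline, FSK, EZH2i and CBPi without overlap. IFIT1 fell by 1.22 ± 0.06 on the log2 scale under EZH2i (2.34-fold; edgeR adjusted p = 2.27e-12), by 1.81 ± 0.07 under CBPi (3.50-fold; edgeR adjusted p = 1.71e-14) and by 0.79 ± 0.06 under FSK (1.73-fold; edgeR adjusted p = 1.65e-09). IFIT3, its partner in complexes, was at 17.9 ± 0.616 CPM at baseline and 19.3 ± 0.342, 20.3 ± 0.763 and 19.1 ± 1.13 under EZH2i, CBPi and FSK (SD, n = 3 each). It passed only under CBPi, at 0.18, and that call was lost with DESeq2 (adjusted p = 0.0654) and without CBPi replicate 3 (edgeR adjusted p = 0.101). Per kilobase, the ratio of IFIT1 to IFIT3 was 1.06 ± 0.0368 at baseline, 0.421 ± 0.0235 under EZH2i, 0.267 ± 0.00809 under CBPi and 0.577 ± 0.0316 under FSK (SD, n = 3 each), a pair also chosen after its values were seen. IFIT5 fell by 0.43 ± 0.09 under FSK (edgeR adjusted p = 0.000243) and was 0.08 under EZH2i and -0.17 under CBPi, where it passed only without CBPi replicate 2 (-0.22, edgeR adjusted p = 0.0362). IFIT2 was between 9.07 and 11.9 CPM in the group means and passed in no comparison with baseline. It was lower under EZH2i than under FSK, at -0.40 on the log2 scale (edgeR adjusted p = 0.00139), and lower under CBPi than under FSK, at -0.24 (edgeR adjusted p = 0.0431).

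**Figure D3:**
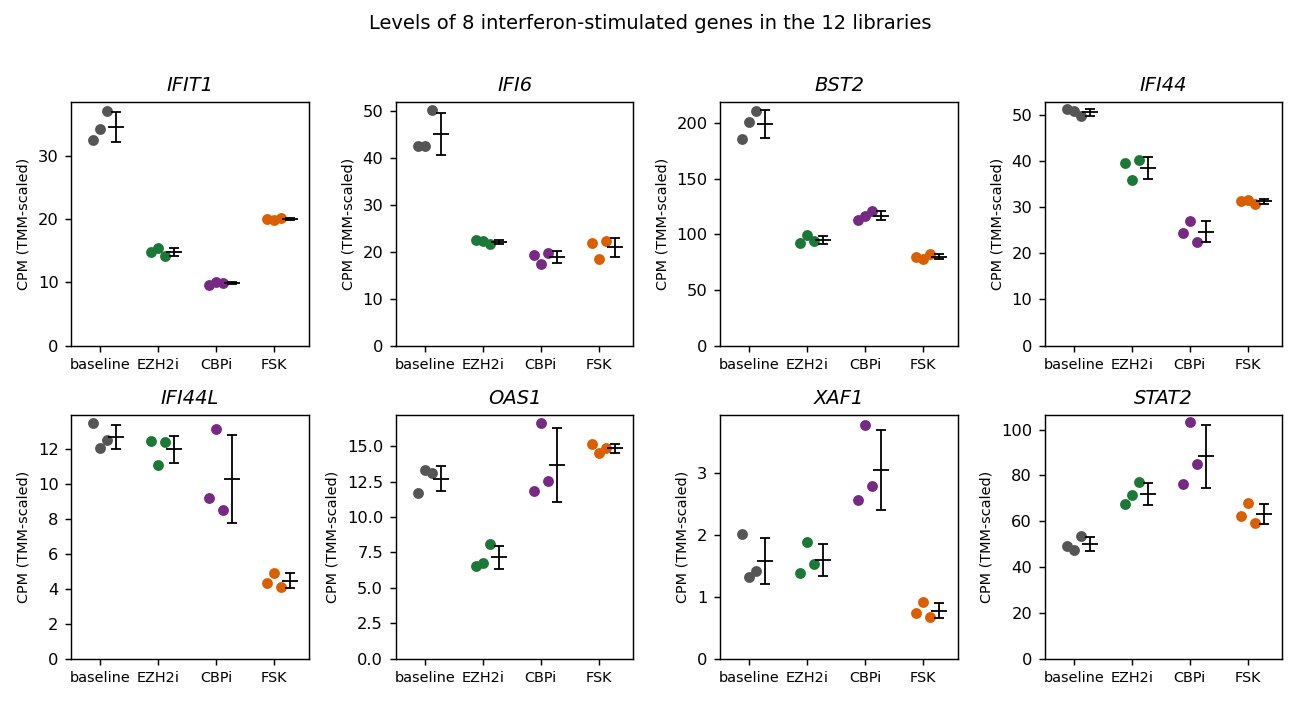
TMM-scaled CPM in each of the 12 libraries for 8 members; each point is a library, and the bar shows the group mean ± SD (n = 3). The axes start at 0. IFIT1, IFI6 and BST2 are below baseline in all treated libraries, STAT2 is above it, IFI44L and XAF1 are lowest under FSK, and OAS1 is low only under EZH2i.

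Of the 5 tested membrane-acting and GTPase effectors, 3 fell under EZH2i, 4 under CBPi and 4 under FSK, and 0 rose. The shares that fell were 60%, 80% and 80%, against 28.3%, 29.0% and 25.1% of all genes. Of all genes, 29.5%, 29.8% and 25.5% rose. BST2 (chr19:17402939-17405648) was at 186, 201 and 211 CPM at baseline, 92.3, 99.4 and 93.7 under EZH2i, 113, 117 and 121 under CBPi and 80.1, 77.6 and 82.3 under FSK. Each treated group lay below baseline and apart from the other groups. BST2 fell by 1.07 ± 0.05 on the log2 scale under EZH2i (2.10-fold; edgeR adjusted p = 3.98e-13), by 0.77 ± 0.05 under CBPi (1.71-fold; edgeR adjusted p = 5.46e-11) and by 1.32 ± 0.05 under FSK (2.49-fold; edgeR adjusted p = 1.48e-14). IFITM1 and IFITM2, which hinder viral fusion, were at 1.75 ± 0.303 and 2.03 ± 0.230 CPM at baseline (SD, n = 3 each). The 2 genes share 351 exonic bases in GENCODE 29, so their reads may be split between them. Both count in the shares above, which may therefore not come from 5 separate genes. IFITM2 was -1.07 ± 0.22 under EZH2i, -1.70 ± 0.25 under CBPi and -1.15 ± 0.23 under FSK, and IFITM1 was -0.96 ± 0.22, -1.14 ± 0.24 and -1.26 ± 0.25 in that order (all 6 passed edgeR's test). RSAD2, which encodes viperin, fell by 0.87 ± 0.17 under CBPi (edgeR adjusted p = 0.000202) and by 0.79 ± 0.17 under FSK (edgeR adjusted p = 0.000611) and was -0.36 ± 0.15 under EZH2i (edgeR adjusted p = 0.0552). MX1, a dynamin-like GTPase that blocks viral ribonucleoproteins, was at 6.67 ± 0.387 CPM at baseline and 6.58 ± 0.421, 7.01 ± 0.260 and 6.72 ± 0.270 under EZH2i, CBPi and FSK (SD, n = 3 each) and passed in no comparison with baseline.

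The PARP and SAMD9 members split within each family. PARP9, a macrodomain protein that works with the ligase DTX3L, was at 34.8 ± 2.07 CPM at baseline, 24.6 ± 1.11 under EZH2i, 21.6 ± 2.24 under CBPi and 19.9 ± 0.799 under FSK (SD, n = 3 each). All treated libraries lay below baseline. PARP9 fell by 0.50 ± 0.07 under EZH2i (edgeR adjusted p = 3.92e-06), by 0.68 ± 0.07 under CBPi (edgeR adjusted p = 7.98e-08) and by 0.81 ± 0.07 under FSK (edgeR adjusted p = 1.00e-08). PARP12, which adds mono-ADP-ribose to proteins, rose by 0.40 ± 0.08 under EZH2i (edgeR adjusted p = 0.00013) and by 0.32 ± 0.08 under FSK (edgeR adjusted p = 0.00156). PARP14, another mono-ADP-ribosyltransferase, rose by 0.34 ± 0.06 under EZH2i (edgeR adjusted p = 6.58e-05) and did not pass under CBPi or FSK. The neighbours SAMD9 and SAMD9L (chr7:93099513-93148369), restriction factors that curb translation, differed in direction under CBPi. SAMD9L was at 19.2, 20.5 and 19.1 CPM at baseline, 25.9, 24.7 and 25.7 under EZH2i, 27.2, 31.1 and 25.9 under CBPi and 16.7, 14.3 and 14.6 under FSK. The EZH2i and CBPi libraries all lay above baseline and the FSK libraries all below. SAMD9L rose by 0.37 ± 0.07 under EZH2i (edgeR adjusted p = 0.000232) and by 0.51 ± 0.08 under CBPi (edgeR adjusted p = 6.95e-06) and fell by 0.37 ± 0.08 under FSK (edgeR adjusted p = 0.000713). SAMD9 fell by 0.36 ± 0.06 under CBPi (edgeR adjusted p = 2.04e-05) and by 0.70 ± 0.06 under FSK (edgeR adjusted p = 3.64e-09) and was -0.07 under EZH2i.

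The IFI genes and XAF1 all fell under FSK, 6 of 6, against 25.1% of all genes. Under EZH2i 4 fell and 0 rose, and under CBPi 4 fell and 1 rose. Of all genes, 28.3% fell and 29.5% rose under EZH2i, and 29.0% fell and 29.8% rose under CBPi. IFI6 was at 42.5, 42.4 and 50.2 CPM at baseline, 22.5, 22.2 and 21.7 under EZH2i, 19.2, 17.3 and 19.8 under CBPi and 21.9, 18.5 and 22.3 under FSK. The 3 treated groups lay close together, all far below baseline. IFI6 fell by 1.02 ± 0.08 on the log2 scale under EZH2i (edgeR adjusted p = 5.20e-10), by 1.26 ± 0.08 under CBPi (edgeR adjusted p = 3.77e-11) and by 1.11 ± 0.08 under FSK (edgeR adjusted p = 2.27e-10). IFI35, a binding partner of NMI, fell by 1.18 ± 0.15 under EZH2i, 0.75 ± 0.15 under CBPi and 1.15 ± 0.16 under FSK. IFI27, a small hydrophobic interferon-induced protein, was at 6.66 to 6.73 CPM at baseline, 3.87 to 4.57 under EZH2i, 6.30 to 6.96 under CBPi and 2.55 to 3.00 under FSK. It fell by 0.67 ± 0.10 under EZH2i (edgeR adjusted p = 1.23e-05) and by 1.28 ± 0.12 under FSK (edgeR adjusted p = 1.12e-08), and its CBPi libraries overlapped baseline.

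The neighbours IFI44L and IFI44 (chr1:78619922-78664078), related interferon-induced genes, ranked the treatments differently. IFI44 was at 51.2, 50.7 and 49.7 CPM at baseline, 39.5, 35.8 and 40.3 under EZH2i, 24.4, 27.0 and 22.5 under CBPi and 31.4, 31.6 and 30.7 under FSK. It was lowest under CBPi, and the 4 groups did not overlap. IFI44 fell by 0.39 ± 0.06 under EZH2i (edgeR adjusted p = 1.28e-05), by 1.04 ± 0.06 under CBPi (edgeR adjusted p = 2.93e-11) and by 0.69 ± 0.06 under FSK (edgeR adjusted p = 9.88e-09). IFI44L was at 13.5, 12.1 and 12.5 CPM at baseline, 12.4, 11.1 and 12.4 under EZH2i, 9.21, 13.1 and 8.49 under CBPi and 4.36, 4.93 and 4.12 under FSK. Only its FSK libraries lay wholly below baseline, and CBPi replicate 2 lay within the baseline range. IFI44L fell 2.83-fold under FSK (edgeR adjusted p = 2.26e-08), the largest fall of any member in that comparison. Under CBPi it passed at -0.30 (edgeR adjusted p = 0.0399), a value that was -0.53 without CBPi replicate 2 and -0.17 without CBPi replicate 3 (edgeR adjusted p = 0.246). XAF1, a proapoptotic antagonist of XIAP, was at 2.01, 1.32 and 1.41 CPM at baseline, 1.39, 1.89 and 1.52 under EZH2i, 2.57, 3.77 and 2.78 under CBPi and 0.740, 0.911 and 0.672 under FSK. Its CBPi libraries lay above baseline and its FSK libraries below. XAF1 rose by 0.96 ± 0.20 under CBPi (edgeR adjusted p = 0.000331; 0.77 without CBPi replicate 2) and fell by 1.01 ± 0.26 under FSK (edgeR adjusted p = 0.00272). An opposite-strand gene model, PRAL, covers 38.3% of the exonic bases of XAF1, and the strand setting of the counting is not given in the sources used here.

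**Figure D4:**
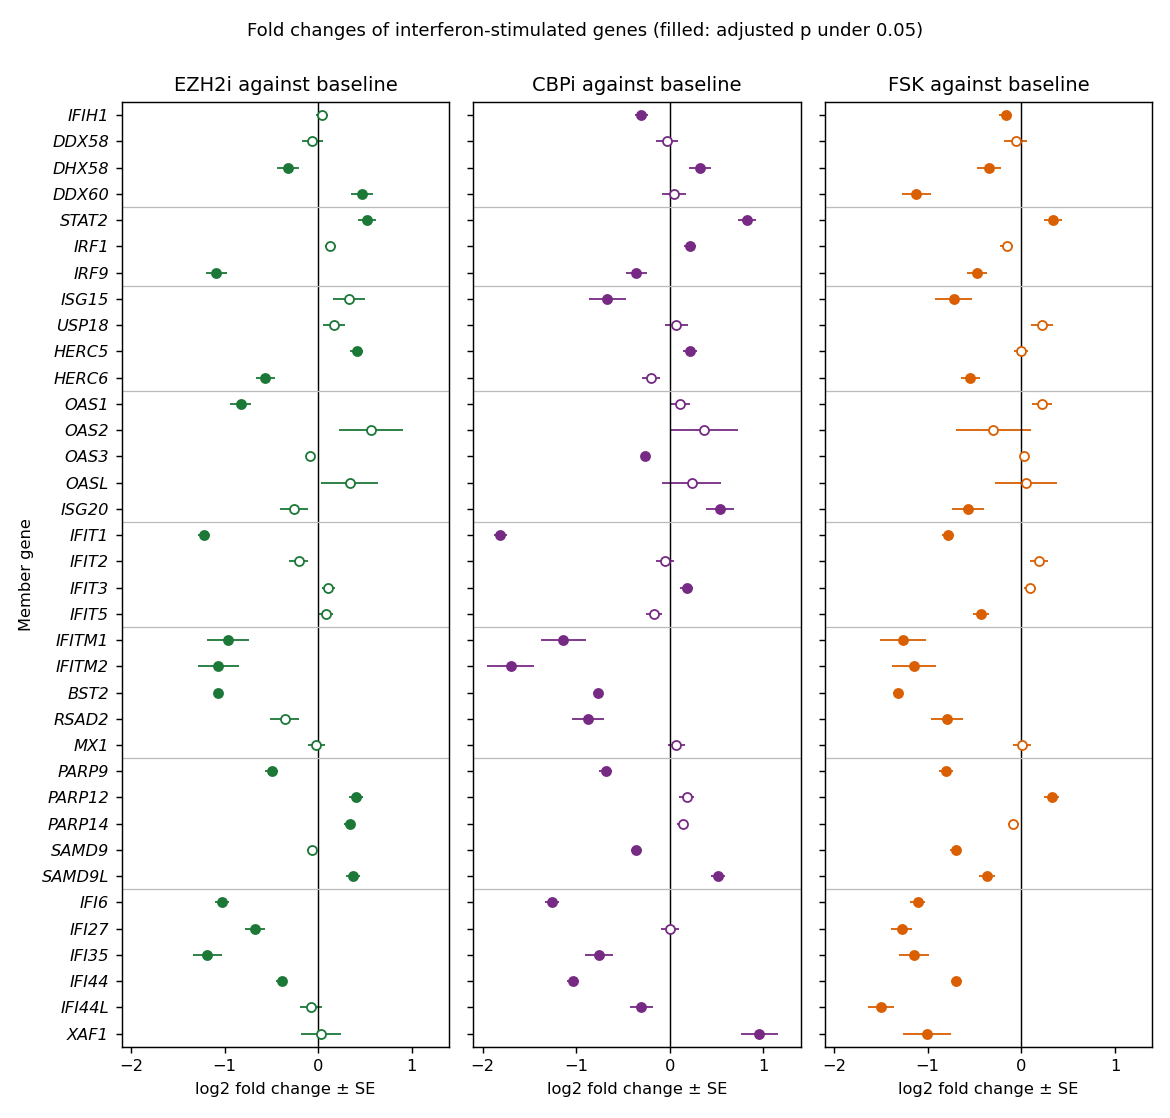
Log2 fold change ± SE of the 36 tested members against baseline under EZH2i, CBPi and FSK (filled circles: adjusted p under 0.05, edgeR's quasi-likelihood test). Under FSK 22 filled circles lie left of 0 and 2, PARP12 and STAT2, lie right of it.

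Leaving out the 11 tested members that share exonic bases with another gene in GENCODE 29 left 25. Under EZH2i 8 of them fell and 6 rose, 32% and 24% against 28.3% and 29.5% of all genes, so both shares lay near those of all genes. Under CBPi 9 fell and 6 rose, 36% and 24% against 29.0% and 29.8%. Under FSK 15 fell and 2 rose, 60% and 8% against 25.1% and 25.5%. In the windows with RefSeq entries, 13 of the 18 tested members with the ISRE letters and 7 of the 12 without them fell under FSK, 72.2% and 58.3% against 25.1% of all genes. Under CBPi 10 of 18 and 4 of 12 fell, 55.6% and 33.3% against 29.0%. Under EZH2i 6 of 18 and 5 of 12 fell, 33.3% and 41.7% against 28.3%. With the letters, 4, 3 and 1 of the 18 rose under EZH2i, CBPi and FSK. Without them, 2, 4 and 1 of the 12 rose. These shares were 22.2%, 16.7% and 5.56% with the letters and 16.7%, 33.3% and 8.33% without, against 29.5%, 29.8% and 25.5% of all genes. Whether the windows with and without the letters differ was not tested.

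In direct comparisons more members were lower under FSK than under either inhibitor. The FSK group had been exposed for 48 h and the inhibitor groups for 96 h, so agent and exposure time cannot be told apart. Under CBPi 15 members were higher than under FSK and 4 were lower (background 29.3% and 29.5%). The differences beyond 1.5-fold (background 8.33% higher and 6.92% lower) were XAF1 at 1.97, IFI27 at 1.28, IFI44L at 1.20, DDX60 at 1.17, ISG20 at 1.11 and SAMD9L at 0.88 on the log2 scale, all higher under CBPi, and IFIT1 at -1.02. Under EZH2i 17 members were higher than under FSK and 5 were lower (background 30.3% and 31.3%). With scaling by library size alone these were 19 and 4, against 36.8% and 25.4% of all genes. Beyond 1.5-fold (background 10.7% and 7.81%), DDX60 at 1.59, IFI44L at 1.42, ISG15 at 1.05 and SAMD9L at 0.74 were higher under EZH2i than under FSK, and OAS1 at -1.05 was lower. Between the inhibitors, 14 members were higher and 10 lower under EZH2i than under CBPi (background 21.7% and 22.2%), and OAS1 at -0.94 differed by more than 1.5-fold (background 3.55% higher and 1.33% lower). Without CBPi replicate 3, 9 were higher.

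The interferons themselves were at the limit of detection. Of 21 interferon genes counted, 18 had 0 counts in all 12 libraries, and the other 3 (IFNA5, IFNB1 and IFNE) had 9 counts in total, at most 3 in a library. A count of 0 allows up to 3 counts, which is 0.0926 to 0.145 CPM over these libraries; this limit covers counting error only. IFNB1 had 3 counts in EZH2i replicate 1, 1 count in CBPi replicate 3 and 0 elsewhere.

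The receptors and JAK kinases changed by at most 0.73 on the log2 scale. Of 9 genes, 2 rose and 3 fell under EZH2i, 6 rose and 2 fell under CBPi, and 3 rose and 1 fell under FSK. The shares that rose were 22.2%, 66.7% and 33.3%, against 29.5%, 29.8% and 25.5% of all genes, and those that fell were 33.3%, 22.2% and 11.1%, against 28.3%, 29.0% and 25.1%. JAK1, which serves all interferon receptors, rose by 0.49 under EZH2i and 0.56 under CBPi, and TYK2, the kinase bound to IFNAR1, rose by 0.42, 0.40 and 0.47 under EZH2i, CBPi and FSK. IL10RB, the shared chain of the lambda interferon receptor, fell by 0.73 under EZH2i.

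Of 6 restrainers of JAK-STAT signalling, 1 rose and 1 fell under EZH2i, 1 and 3 under CBPi, and 3 and 3 under FSK. The shares that rose were 16.7%, 16.7% and 50%, against 29.5%, 29.8% and 25.5% of all genes. Those that fell were 16.7%, 50% and 50%, against 28.3%, 29.0% and 25.1%. SOCS3, an inhibitor of JAK kinases, was at 7.66, 7.43 and 7.15 CPM at baseline and 34.6, 30.8 and 32.7 CPM under FSK, a rise of 2.14 ± 0.08 on the log2 scale (edgeR adjusted p = 6.76e-15). It was 0.04 under EZH2i and fell by 0.59 under CBPi. SOCS1, the related inhibitor of type I and II interferon signalling, was at 13.4 ± 1.22 CPM at baseline and 5.37 ± 0.689 CPM under FSK (SD, n = 3 each), a fall of 1.32 ± 0.16 on the log2 scale (edgeR adjusted p = 2.27e-06). It also passed under CBPi at -0.38. That call was lost with only the 2 groups compared (edgeR adjusted p = 0.0587) and without CBPi replicate 2 (-0.21, edgeR adjusted p = 0.101), among other alternatives. The phosphatase gene PTPN6 fell by 0.78 under EZH2i, 0.55 under CBPi and 0.79 under FSK. Of 11 tested adaptors and kinases of nucleic acid sensing, 5 rose and 3 fell under EZH2i, 6 and 1 under CBPi, and 3 and 3 under FSK. The shares that rose were 45.5%, 54.5% and 27.3%, against 29.5%, 29.8% and 25.5% of all genes, and those that fell were 27.3%, 9.09% and 27.3%, against 28.3%, 29.0% and 25.1%. STING1, the adaptor of the DNA sensor cGAS, had 7, 9 and 11 counts at baseline and 4, 2 and 3 under FSK. Its log2 fold change there was -1.56 ± 0.62 (edgeR adjusted p = 0.0438), a call lost when any 1 library of the FSK or baseline group was left out (edgeR adjusted p = 0.0528 to 0.142). TBK1, the kinase that phosphorylates IRF3, fell by 0.14, 0.54 and 0.60 under EZH2i, CBPi and FSK.

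A further 28 tested interferon-inducible genes outside the set gave 10 lower and 5 higher under EZH2i, 12 lower and 6 higher under CBPi, and 15 lower and 4 higher under FSK. The shares lower were 35.7%, 42.9% and 53.6%, against 28.3%, 29.0% and 25.1% of all genes, and those higher were 17.9%, 21.4% and 14.3%, against 29.5%, 29.8% and 25.5%. Their median log2 fold changes were -0.14, -0.14 and -0.20. GBP2, a guanylate-binding GTPase, was at 7.48, 8.32 and 8.84 CPM at baseline and 1.19, 1.24 and 1.26 CPM under FSK, a fall of 2.74 ± 0.15 on the log2 scale (edgeR adjusted p = 3.95e-12). LAMP3, a lysosomal membrane protein, went the other way, from 1.85 ± 0.542 CPM at baseline to 3.34 ± 0.488, 6.98 ± 0.172 and 4.51 ± 0.338 under EZH2i, CBPi and FSK (SD, n = 3 each), and passed in all 3 comparisons with baseline. Of 8 tested NF-κB target genes, 7 rose and 1 fell under FSK, against 2 and 2 under EZH2i and 1 and 3 under CBPi. The shares that rose were 25%, 12.5% and 87.5% under EZH2i, CBPi and FSK, against 29.5%, 29.8% and 25.5% of all genes, and those that fell were 25%, 37.5% and 12.5%, against 28.3%, 29.0% and 25.1%. CXCL8, a neutrophil-attracting chemokine, had 4, 2 and 2 counts at baseline, 44, 58 and 41 under EZH2i, 2, 4 and 8 under CBPi and 14, 10 and 19 under FSK. It had the largest change of the list, 3.70 ± 0.40 on the log2 scale under EZH2i (edgeR adjusted p = 1.26e-07), and rose by 2.37 ± 0.50 under FSK (edgeR adjusted p = 0.000473). BIRC3, an inhibitor of apoptosis protein, had 9 to 18 counts per library at baseline and rose by 1.63 ± 0.22 under EZH2i, 1.44 ± 0.23 under CBPi and 1.08 ± 0.24 under FSK (edgeR adjusted p = 2.33e-06, 2.21e-05 and 0.00098). TNFAIP3, the feedback inhibitor A20, was at 127 to 131 CPM at baseline, 56.2 to 62.7 under EZH2i, 110 to 115 under CBPi and 528 to 538 under FSK. NFKB2, a subunit of the noncanonical pathway, was at 25.1 to 26.0 CPM at baseline and 78.7 to 83.9 CPM under FSK.

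**Figure D5:**
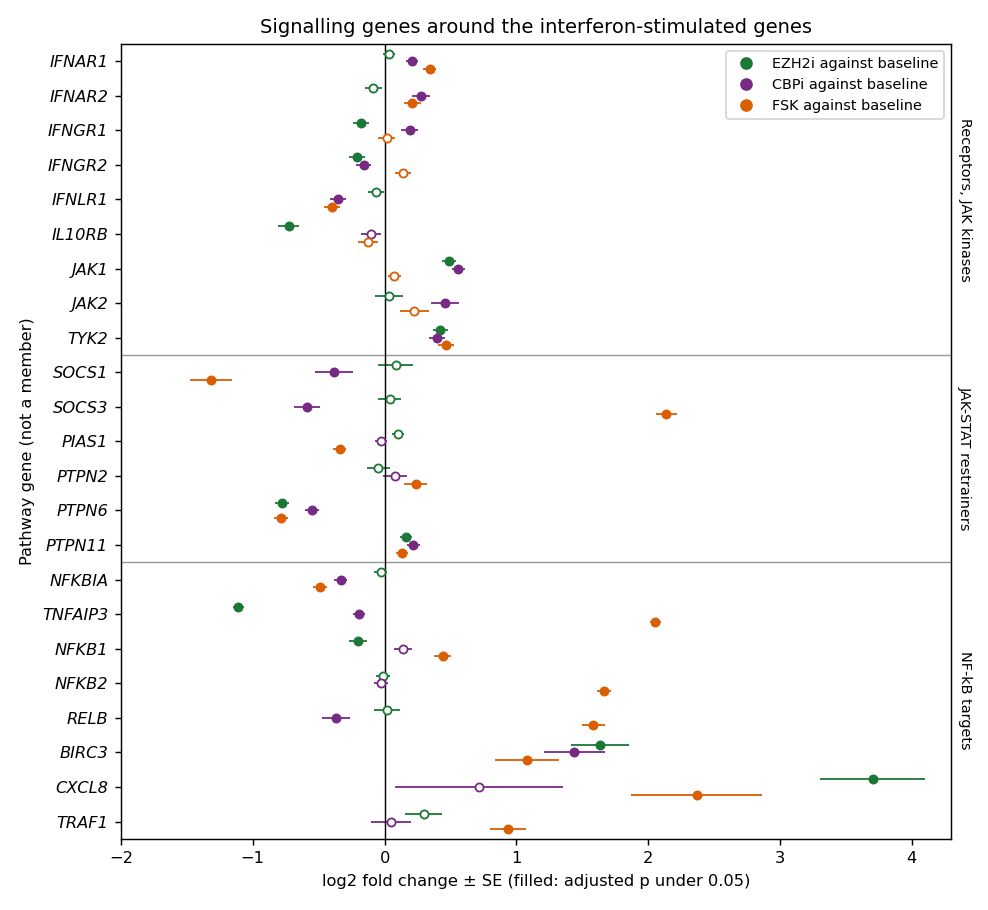
Log2 fold change ± SE against baseline of signalling genes outside the set: receptors and JAK kinases, restrainers of JAK-STAT signalling, and NF-κB targets (filled: adjusted p under 0.05). Under FSK SOCS3 lies at 2.14 and TNFAIP3 at 2.06, while SOCS1 lies at -1.32.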

How the data were processed

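RNA from NCI-H295R cultures was sequenced in 12 libraries, and groups were taken from the labels. STAR and featureCounts with hg38 are named in the submitters' processing notes, without versions. Not given in the sources used here are the annotation release, whether strand was used, and how reads with several matches were counted. The authors deposited estimated counts (expected counts), of which 65.6% of non-zero values are whole within 1e-06, and a gene length column of another unit. Counts were rounded. In R 4.3.3 with edgeR 4.0.16, genes were kept by filterByExpr, libraries were scaled by TMM and 1 quasi-likelihood model was fitted to all 12 libraries with 8 residual degrees of freedom. The test against a 1.5-fold change used glmTreat. Alternatives were DESeq2 1.42.0, limma 3.58.1 voom, other scalings and filters, only the compared groups, and leaving out each library. The procedure was tested on data simulated like the EZH2i and baseline libraries. It recovered 19 of 50 genes changed by 1.25-fold, 41 of 50 by 1.5-fold and 48 of 50 by 2-fold, and called 17 unchanged genes. A gene that did not pass may therefore still have changed by a small fold. The changed genes were drawn from those above 1 CPM at baseline, and far fewer genes changed than were called in the data. The rates therefore do not cover members below that level, such as OAS2 and OASL. CPM are TMM-scaled; CPM per kb used the deposited length. Symbols came from a gene name table (DDX58 is listed there as RIGI), positions and shared exons from GENCODE 29 (hg38), promoters from RefSeq. The deposited lengths of some members differ from GENCODE 29, such as 936 against 1080 exonic bases for IFITM1. The gene models counted may therefore not be those used for shared exons. All members tested are given values or counts. Of other genes, values or counts are given for cell type markers and for IFNA5, IFNB1 and IFNE. In each other pathway list, up to 4 genes drawn from the 4 with the largest changes are given values. The members, the lists and this rule were chosen with earlier results of these data known. A further gene that the rule allows is not reported here.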

Additional observations from a re-analysis of the deposited data

How the results depend on the processing

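No paired analysis was possible because the labels give no replicate numbers. For EZH2i, CBPi and FSK against baseline, no called member reversed its direction under any alternative. Per comparison, 14 alternatives gave 12 to 16, 12 to 16 and 20 to 24 members lower, and 6 to 8, 6 to 10 and 2 to 3 higher. With CBPi, the count higher by more than 1.5-fold was 0 with only the 2 groups compared and 0 to 2 when single libraries were left out; the median was -0.15 to -0.000460 on leaving out single libraries, lowest without CBPi replicate 2. The FSK median was -0.52 with library size only. Members higher with EZH2i than CBPi were 9 to 14 on leaving out single libraries, lowest without CBPi replicate 3. The cause was not tested. Over all tested members and alternatives, calls were lost in 3, 20 and 13 cases and gained in 10, 5 and 7 for EZH2i, CBPi and FSK. Depth limits IRF7, IFITM3 and MX2, which were not tested, and OAS2 and OASL. The 1.5-fold test was not run with DESeq2 or limma voom.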
